A study of Mus musculus with 6 samples.

Results

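DNA methylation in mammals is written by the DNA methyltransferases, erased stepwise by the TET dioxygenases and read by proteins that bind methylated CpG, a cytosine followed by a guanine. The 9 genes described here cover each of these roles: Dnmt1, Dnmt3a and Dnmt3b encode methyltransferases, Tet1, Tet2 and Tet3 encode TET enzymes, Mbd1 and Mbd2 encode methyl-CpG binding domain proteins, and Zfp57 encodes a KRAB zinc finger protein that binds a methylated motif at imprinted control regions. They were chosen by symbol from a table of 24503 genes, with earlier results of these data known. All 9 passed the filter on low counts that left 13683 genes for testing. DNMT1 copies methylation onto the new strand at replication, with UHRF1 as its recruiter, while DNMT3A and DNMT3B set methylation on sites that lacked it. TET enzymes oxidize 5-methylcytosine, after which base excision repair or replication removes it. In the nervous system DNMT3A and the TET enzymes are known for their roles in the passage from progenitors to neurons.

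RNA was sequenced from primary neural stem cells taken from E13.5 mouse cortex, enriched as neurospheres and grown on laminin with FGF (10 ng/mL) and EGF (20 ng/mL). Controls (WT, n = 3 libraries) were Phf2 flox/flox without Cre, and mutants (KO, n = 3 libraries) were Phf2 flox/flox with the Nestin-Cre transgene B6.Cg-Tg(Nes-cre)1Kln/J, which drives Cre in neural progenitors. Phf2 encodes a Jumonji-family protein that acts on methylated histone H3, and the comparison asks what its deletion does to transcript levels. Both groups carried the floxed alleles and only mutants carried Cre, so loss of Phf2 and presence of the transgene cannot be told apart. The labels do not say whether libraries came from separate embryos or cultures, and p-values then measure only the spread between these libraries, which may be technical.

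Total counts ranged from 33413444 to 46890314 per library. Phf2, counted over the whole gene, had 4996, 3647 and 3670 counts across WT 1 to 3 against 2315, 2041 and 1640 across KO 1 to 3. The log2 fold change was −0.85 ± 0.150 (SE, edgeR adjusted p = 0.182), and −0.84 ± 0.0743 with the library number as a block (edgeR adjusted p = 0.000123). The groups did not overlap, and transcript remained in each KO library; the labels do not give the deleted exons. The 13 neural stem cell markers, which include Nes, Sox2, Vim and Fabp7, summed to between 10025 and 11906 CPM (library-scaled counts, with TMM factors) in the 6 libraries, and none was at 0. The 8 microglia markers summed to between 0.421 and 1.22 CPM, with 3 of the 8 at 0 counts in every library, and the 7 endothelial markers to between 1.72 and 2.57 CPM. The 8 mesenchymal markers summed to between 35.6 and 65.4 CPM, the 12 neuron markers to between 836 and 1164 CPM and the 10 oligodendrocyte lineage markers to between 3500 and 4251 CPM. The libraries numbered 1 stood apart in both groups. With the genotype as a covariate, 7879 genes (57.6% of those tested) differed between number 1 and numbers 2 and 3. This split was tested because earlier results of these data showed number 1 apart. Its p-values and counts, here and below, describe that split and are not independent evidence for it. Calls throughout are from edgeR's quasi-likelihood test at a Benjamini-Hochberg adjusted p under 0.05. Because number 1 stood apart, the KO comparison of each of the 9 genes is given without and with the library number as a block. This block is a term that removes differences shared by libraries of 1 number.

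All 9 genes had counts in every WT and KO library. Without the block, 0 of the 9 genes were called by edgeR, where 0.0585% of all tested genes were, 0 had an unadjusted p under 0.05, and DESeq2 called 0, with 1 at an unadjusted p under 0.05. With the block, 1 of the 9, Zfp57, was called, and it was higher in KO (9.79% of all tested genes were called, 3.33% as higher). The log2 fold changes (KO minus WT) of the 9 had a median of 0.20 without the block and 0.22 with it. Over all tested genes the medians were 0.0053 and 0.0068. Of the 9, 8 were above 0 in both fits, where 7013 and 7088 of the 13683 tested genes were. The unblocked median was 0.075, with 6 of 9 above 0, without WT 3, and 0.12, with 7 of 9 above 0, without KO 1. When the block set only number 1 apart it was 0.065 without WT 3 and 0.37 without WT 2. In 0 of the 9 genes did the KO libraries lie wholly above or below the WT libraries, which was so for 11.2% of tested genes. These are bulk RNA levels, so fewer cells that express a gene and less RNA per cell cannot be told apart.

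**Figure D1:**
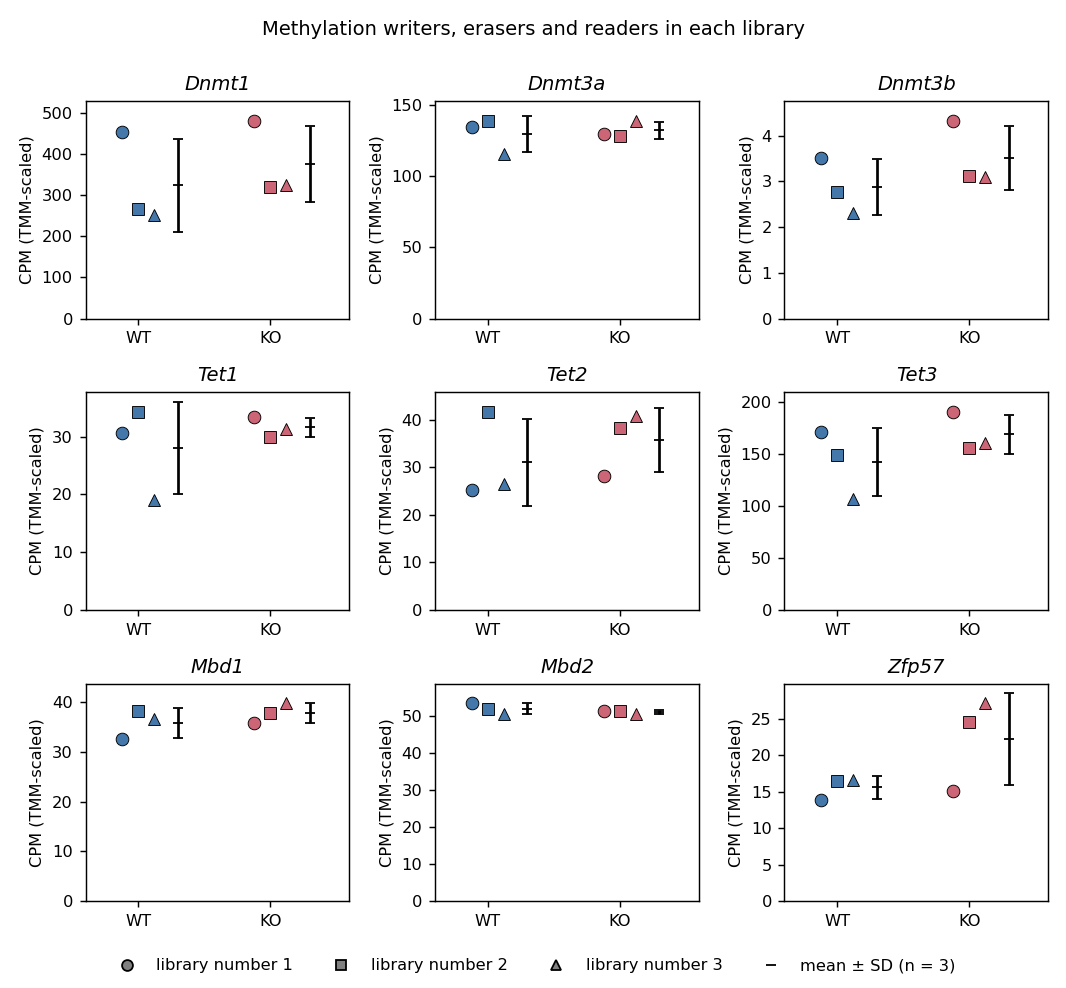
TMM-scaled CPM of the 9 genes (y axes, each from 0) in WT (blue) and KO (red) libraries, with the library number as the marker shape and the mean ± SD of 3 libraries beside each group. Dnmt1 and Dnmt3b are highest in the libraries numbered 1 of both groups, Mbd2 is between 50.4 and 53.3 CPM in all 6, and Zfp57 is highest in KO 2 and KO 3.

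Among the writers, Dnmt1, the maintenance methyltransferase, was the most abundant. It lies on chromosome 9 (20907209 to 20959888, minus strand, GRCm38). Its level was 452, 266 and 252 CPM in WT 1 to 3 and 481, 320 and 324 CPM in KO 1 to 3. Each KO library was above the WT library of the same number, but the spread between number 1 and the others was wider than the gap between the genotypes, and the groups overlapped. KO minus WT on the log2 scale was 0.21 ± 0.281 (SE, 95% interval −0.46 to 0.89), edgeR adjusted p = 0.999. With the block it was 0.24 ± 0.0708 (95% interval 0.081 to 0.40) with adjusted p = 0.0629 in the same edgeR test, which missed the limit. Dnmt1 passed it with the block in DESeq2 (adjusted p = 0.0280) and when edgeR's block set only number 1 apart (adjusted p = 0.0478). It missed the limit in edgeR with the block and upper-quartile scaling (adjusted p = 0.0954). Without WT 1 and KO 1, edgeR gave an adjusted p of 0.0565. When edgeR's block set only number 1 apart and KO 2 was pooled with KO 3, the adjusted p was 0.242. With that block and 1 library left out, Dnmt1 was called without WT 3 or KO 1. It was not called without WT 1, WT 2, KO 2 or KO 3 (edgeR adjusted p = 0.0502, 0.0705, 0.239 and 0.255).

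Dnmt1 followed the library number. It was 1.75 times the mean of numbers 2 and 3 in WT 1, and 1.49 times in KO 1. The fitted log2 difference between number 1 and the others was 0.69 ± 0.0658 (SE, edgeR adjusted p = 4.2e-05). Genes of DNA replication moved with it: all 30 genes of a replication and proliferation list were called higher in number 1, where 28.2% of all tested genes were, with a median log2 difference of 0.64. Their summed level was 6209, 3647 and 3584 CPM in WT 1 to 3 and 6502, 4579 and 4608 CPM in KO 1 to 3. Number 1 was set apart because earlier results of these data showed it apart, so these calls describe a split already known. The part of cell proliferation in the level of Dnmt1 was not tested.

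Ratios within a library do not depend on how libraries are scaled. Counts of Dnmt1 divided by those of Uhrf1, its recruiter to hemimethylated DNA, gave 1.32, 1.39 and 1.27 in WT 1 to 3 and 1.25, 1.20 and 1.20 in KO 1 to 3. Counts of Dnmt1 divided by those of Pcna, the sliding clamp that holds it at the replication fork, gave 1.15, 1.25 and 0.997 for WT, then 1.11, 1.09 and 1.09 for KO. Both ratios thus ranged less than Dnmt1 itself, which ranged 1.91-fold over the 6 libraries. The ratio to Uhrf1 was lower in each KO library than in any WT library. In every other count ratio computed between genes the groups overlapped. For comparison, the WT and KO levels of 11.2% of all tested genes did not overlap. The difference in the ratio to Uhrf1 was not tested. Dnmt1 counts divided by those of Dnmt3a were by contrast 3.36 in WT 1 and 3.72 in KO 1, and between 1.92 and 2.50 in the other 4 libraries.

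**Figure D2:**
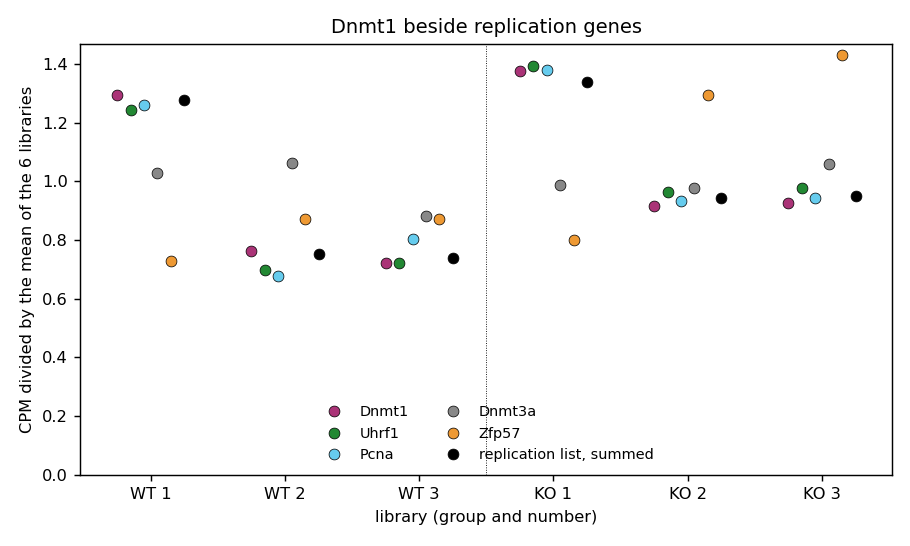
Each gene's CPM divided by its own mean over the 6 libraries (y axis, from 0), for Dnmt1, Uhrf1, Pcna, Dnmt3a, Zfp57 and the summed replication list, in each library (x axis). Dnmt1, Uhrf1, Pcna and the replication list lie close together in every library and are highest in WT 1 and KO 1, while Zfp57 is lowest in those 2 libraries.

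The Dnmt1 gene carried letters that some replication genes also carry near their start. A motif of the E2F cell cycle factors (TTTGGCGC or TTTCGCGC, either strand, the forms not overlapping here) was searched in RefSeq windows from 250 bases before to 50 after each start (GRCm38.p6). It was found in 267 of 32851 windows (0.813%), in 9 of 27 windows (33.3%) of the replication list, and in 1 of the 13 windows of the 7 member genes that matched. That window is 1 of the 3 listed for Dnmt1, and its matches are shown in capitals because windows of Uhrf1 and of 9 genes of the replication list, among them Mcm3 and Mcm5, hold one of the same motifs; the first lies at chr9:20952827-20952850 and the second at chr9:20952575-20952598, both read from the minus strand.
Dnmt1 first match: ttccgcgcGCGCGAAAaagccggg
Dnmt1 second match: gggcagcgTTTGGCGCgggctgtg
A match describes letters in this window and is not a measured binding site.

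Dnmt3a, a de novo methyltransferase abundant in the developing brain, was the steadiest of the 3 writers. It lies on chromosome 12 (3806007 to 3914443, plus strand), and was measured at 135, 139 and 115 CPM in WT 1 to 3 and at 129, 128 and 139 CPM in KO 1 to 3. The groups overlapped, and WT 3 was the lowest library. For KO against WT the log2 fold change was 0.026 ± 0.105 (SE, 95% interval −0.23 to 0.28, edgeR adjusted p = 0.999), and 0.030 ± 0.0802 with the block (95% interval −0.15 to 0.21). It also differed little between number 1 and the others, by 0.020 ± 0.0825 (log2, SE). An antisense gene, Dnmt3aos, overlaps 133 bases of its exons, and without a stated strand setting their reads cannot be told apart.

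Dnmt3b, the other de novo enzyme, was the rarest member. It lies on chromosome 2 (153649450 to 153687730, plus strand) and had 162, 112 and 109 counts in WT 1 to 3 and 178, 132 and 104 counts in KO 1 to 3. This was 2.87 ± 0.612 CPM (SD, n = 3) on average for WT and 3.51 ± 0.709 for KO, with overlapping groups. The log2 fold change was 0.29 ± 0.254 (SE, edgeR adjusted p = 0.999), and 0.29 ± 0.149 with the block (95% interval −0.040 to 0.62, edgeR adjusted p = 0.274). Like Dnmt1 it was higher in number 1 than in the others, by 0.48 ± 0.139 (log2, edgeR adjusted p = 0.0166). Counts of Dnmt3a divided by those of Dnmt3b were 38.3, 50.04 and 49.96 in WT 1 to 3 and 29.9, 41.1 and 44.9 in KO 1 to 3. Dnmt3l, the catalytically inactive partner of the DNMT3 enzymes in germ cells, had 0 counts in all 6 libraries.

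Among the erasers, Tet3, the enzyme also abundant in the egg, made up most TET transcript. It lies on chromosome 6 (83362373 to 83459084, minus strand), and was measured at 171, 149 and 106 CPM in WT 1 to 3 and at 190, 156 and 160 CPM in KO 1 to 3. Each KO library was above the WT library of its number, and WT 3 was far below the other 5. The log2 fold change was 0.25 ± 0.191 (SE, 95% interval −0.21 to 0.71, edgeR adjusted p = 0.999), and 0.27 ± 0.0938 with the block (95% interval 0.060 to 0.48, adjusted p = 0.108). When the block set only number 1 apart, Tet3 was called without WT 2 (log2 fold change 0.39, edgeR adjusted p = 0.0414). It was also called without WT 3 (0.11, edgeR adjusted p = 0.0448). With any other library left out it was not called (edgeR adjusted p from 0.290 to 0.453). Number 1 was higher than the others by 0.35 ± 0.115 (log2, edgeR adjusted p = 0.0289).

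Tet1, which encodes a CXXC-domain TET enzyme, lies on chromosome 10 (62804570 to 62908996, minus strand), and was measured at 30.7, 34.3 and 19.03 CPM in WT 1 to 3 and at 33.4, 30.0 and 31.4 CPM in KO 1 to 3. The KO libraries lay within the WT range, with WT 3 alone low. Its log2 fold change was 0.17 ± 0.224 (SE, 95% interval −0.37 to 0.72, edgeR adjusted p = 0.999), and 0.21 ± 0.150 with the block (edgeR adjusted p = 0.453). It was −0.044 ± 0.121 without a block when WT 3 was left out.

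Tet2, which lacks a CXXC domain of its own, lies on chromosome 3 (133463679 to 133545139, minus strand), where the antisense gene Gm42567 overlaps 43 bases of its exons, with the same limit. It was measured at 25.2, 41.7 and 26.5 CPM in WT 1 to 3 and at 28.2, 38.4 and 40.9 CPM in KO 1 to 3. WT 2, KO 2 and KO 3 were high and the other 3 libraries low, so the split did not follow the genotype. Between the genotypes the log2 fold change was 0.20 ± 0.245 (SE, 95% interval −0.39 to 0.79, edgeR adjusted p = 0.999), and 0.22 ± 0.123 with the block (edgeR adjusted p = 0.322). Against the direction of Dnmt1 and Tet3, Tet2 was lower in number 1 than in the others (log2 difference −0.46 ± 0.155, edgeR adjusted p = 0.0306). Counts of Tet3 divided by those of Tet2 were 6.78 in WT 1 and 6.74 in KO 1, against 3.57 to 4.06 in the other 4 libraries.

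WT 3 differed from the other WT libraries by transcript length, and the TET genes are long. Among 816 tested genes whose longest annotated transcript has 8 kb or more, the median log2 deviation from the WT mean was −0.22 in WT 3, against 0.094 in WT 1 and 0.14 in WT 2. Among 2573 genes under 2 kb it was 0.13 in WT 3, against −0.059 in WT 1 and −0.064 in WT 2. In the KO libraries the same medians lay between −0.038 and 0.027. Dnmt3a (9.69 kb), Tet1 (14.4 kb), Tet2 (9.18 kb) and Tet3 (10.9 kb) deviated by −0.16, −0.50, −0.19 and −0.39 in WT 3. The shorter Dnmt1 (5.87 kb) and Dnmt3b (4.32 kb) deviated there by −0.31 and −0.25, more than Dnmt3a and Tet2, and Tet2 was lower still in WT 1, at −0.26. Mbd2, Mbd1 and Zfp57, each under 4 kb, lay between −0.037 and 0.086 in WT 3. The median log2 difference between KO and WT for genes of 8 kb or more was 0.093 with WT 3 and −0.018 without it. Without WT 3, and without a block, the log2 fold changes of Dnmt3a and Tet1 changed sign and those of Tet2 and Tet3 were 0.092 and 0.075. The part of transcript length in these differences was not tested beyond these values.

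**Figure D3:**
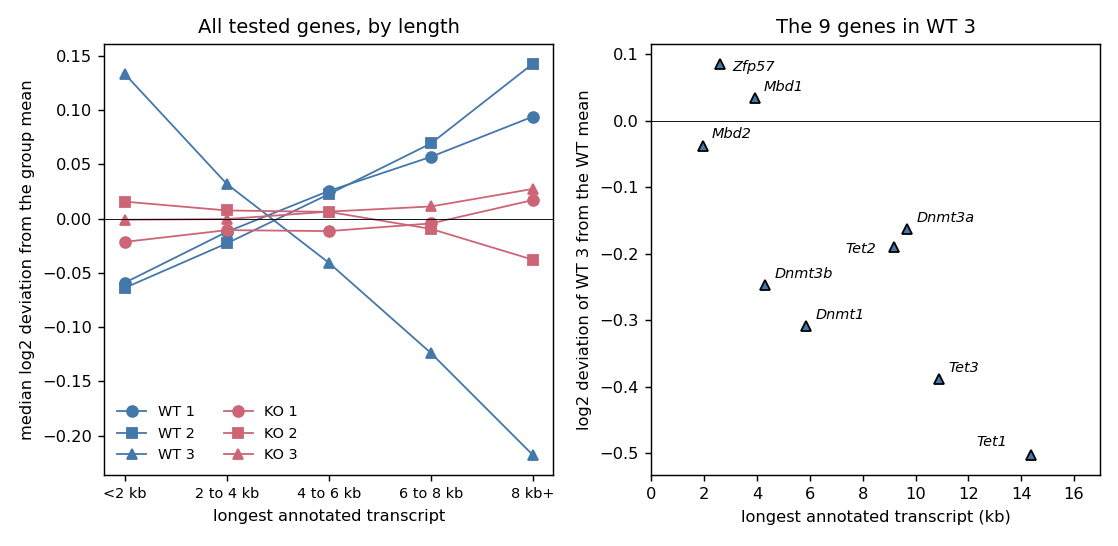
Left, median log2 deviation from the group mean over all tested genes with a known length (y axis), by length of the longest annotated transcript (x axis), for each WT (blue) and KO (red) library. WT 3 falls from 0.13 under 2 kb to −0.22 at 8 kb or more. Right, the deviation of WT 3 from the WT mean for the 9 genes against transcript length; Tet1 is lowest at −0.50.

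Both methyl-CpG readers varied little between libraries. Mbd2, which recruits the NuRD corepressor complex to methylated DNA, lies on chromosome 18 (70568189 to 70626131, plus strand). It was measured at 53.3, 51.8 and 50.6 CPM in WT 1 to 3 and at 51.3, 51.2 and 50.4 CPM in KO 1 to 3. All 6 libraries lay within a 1.06-fold range, the narrowest of the 9 genes. The log2 fold change was −0.026 ± 0.0870 (SE, 95% interval −0.24 to 0.18, edgeR adjusted p = 0.999), and −0.026 ± 0.0663 with the block (edgeR adjusted p = 0.855).

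Mbd1, whose protein binds methylated CpG and works with histone H3 lysine 9 methylation, lies on chromosome 18 (74267605 to 74282732, plus strand). It was measured at 32.5, 38.2 and 36.5 CPM in WT 1 to 3 and at 35.7, 37.7 and 39.7 CPM in KO 1 to 3. The groups overlapped, and the log2 fold change was 0.078 ± 0.111 (SE, 95% interval −0.19 to 0.35, edgeR adjusted p = 0.999), and 0.080 ± 0.0732 with the block (edgeR adjusted p = 0.563).

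Zfp57, which protects methylation at imprinted control regions, was the only one of the 9 genes that edgeR called with the library number as the block. It lies on chromosome 17 (37001163 to 37010635, plus strand). It had 636, 666 and 782 counts in WT 1 to 3 and 624, 1042 and 913 counts in KO 1 to 3. In CPM this was 13.8, 16.5 and 16.6 for the controls, 15.2, 24.6 and 27.1 for the mutants. KO 2 and KO 3 were above every WT library, while KO 1 was above WT 1 and below WT 2 and WT 3.

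The log2 fold change of Zfp57 was 0.51 ± 0.234 without the block (SE, 95% interval −0.055 to 1.08, unadjusted p = 0.0694, edgeR adjusted p = 0.947). With the block it was 0.48 ± 0.112 (95% interval 0.23 to 0.73), a 1.39-fold rise with adjusted p = 0.0257 in the same edgeR test. Within a number, KO was 110% of WT in number 1, 149% in number 2 and 164% in number 3, so number 1 differed least. The labels do not state that libraries of the same number are pairs. In numbers 2 and 3 alone the log2 fold change was 0.64 ± 0.0916 (edgeR adjusted p = 0.0160, where 5.40% of tested genes were called). When the block set only number 1 apart, Zfp57 was not called without WT 2, KO 2 or KO 3, with edgeR adjusted p = 0.0768, 0.101 and 0.130. With the counts of KO 2 and KO 3 summed it was not called either.

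Zfp57 was lower in number 1 than in numbers 2 and 3 (log2 difference −0.51 ± 0.119, edgeR adjusted p = 0.00600), the reverse of Dnmt1. Markers of several neural cell types moved with the library number too, though not all in the same direction. Of 11 tested neuron markers, 3 were called higher in number 1 and 3 lower. The neuron markers summed to 1164 CPM in WT 1 and 1115 CPM in KO 1, against 836 to 899 CPM in the other libraries. In number 1, 5 of the 8 astrocyte markers were called lower and 1 higher, as were 10 of 13 neural stem cell markers lower and 1 higher, and 6 of 8 tested oligodendrocyte lineage markers lower and 0 higher, where 29.4% of all tested genes were lower. The astrocyte markers, none of them at 0, summed to 745, 1708 and 1835 CPM in WT 1 to 3 and to 951, 2336 and 2308 CPM in KO 1 to 3, most of it from Sparcl1 and Aldoc. The part of these markers in the level of Zfp57 was not tested.

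**Figure D4:**
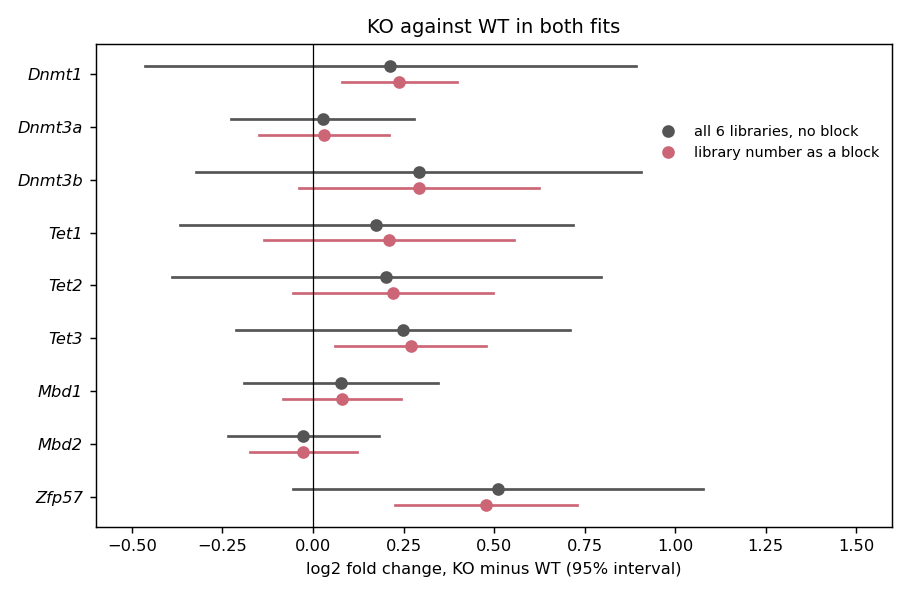
log2 fold change of KO against WT (x axis) with its 95% interval for the 9 genes, without a block (grey) and with the library number as a block (red). All 9 grey intervals include 0; with the block those of Dnmt1, Tet3 and Zfp57 lie above 0, and of these Zfp57 alone passed adjustment over all tested genes.

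The promoters of these genes differ in the CpG content that their products act on, and 2 are shown for that contrast. In RefSeq windows of 300 bases (GRCm38.p6) the median over all 32851 windows was 7 CpG. Among the members the count was 57 for Tet2, 46, 47 and 18 for the 3 windows of Dnmt3a, 30 for Dnmt3b, 22 for Tet3, 17 for Tet1, 33, 12 and 2 for those of Dnmt1, and 6, 9 and 4 for those of Zfp57. Mbd1 and Mbd2 had no window matched. The 250 bases before a start of Zfp57 (chr17:37000913-37001162, plus strand) hold 6 CpG. Those before a start of Dnmt3a (chr12:3806730-3806979, plus strand) hold 38. The part of CpG content in the KO and WT levels was not tested. CpG is in capitals.
Zfp57: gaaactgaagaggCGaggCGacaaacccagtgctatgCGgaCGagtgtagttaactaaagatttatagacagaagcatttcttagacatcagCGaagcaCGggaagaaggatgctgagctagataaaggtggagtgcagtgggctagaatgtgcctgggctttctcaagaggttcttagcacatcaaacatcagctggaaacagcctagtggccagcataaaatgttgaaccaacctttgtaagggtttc
Dnmt3a: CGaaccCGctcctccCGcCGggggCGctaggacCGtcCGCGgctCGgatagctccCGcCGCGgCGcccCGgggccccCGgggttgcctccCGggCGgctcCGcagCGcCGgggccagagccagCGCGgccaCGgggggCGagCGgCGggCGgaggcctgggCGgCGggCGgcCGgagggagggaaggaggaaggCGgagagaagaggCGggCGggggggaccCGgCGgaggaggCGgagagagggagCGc
Methylation itself was not measured here, so these letters show where it could lie and not whether it does.

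Levels can be set beside each other between genes only per length. In CPM per kb of exon length, averaged over all 6 libraries, Dnmt1 stood first at 47.4, followed by Mbd2 at 16.0, Tet3 at 9.31, Dnmt3a at 7.87, Mbd1 at 5.48, Zfp57 at 5.01, Tet2 at 1.98, Tet1 at 1.93 and Dnmt3b at 0.625. Dnmt1 was in the 92.2 percentile of 13146 tested genes with a length, and Dnmt3b in the 16.0 percentile. Tet3 and Dnmt3a, Mbd1 and Zfp57, and Tet2 and Tet1 were neighbours whose ranges over the 6 libraries overlapped, while the ranges of the other neighbours did not. These ranges are by exon length only. Tet3 was above Dnmt3a in 5 of 6 libraries, all but WT 3.

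Within each family the shares per length did not separate the genotypes. Dnmt1 made up 83.3% ± 3.74 of the methyltransferase level per length in WT and 85.1% ± 2.82 in KO (SD, n = 3). Dnmt3a made up 15.6% ± 3.63 and 13.7% ± 2.81, and Dnmt3b 1.09% ± 0.112 and 1.16% ± 0.0181. Tet3 made up 69.9% ± 4.56 of the TET level per length in WT and 70.7% ± 3.62 in KO. Tet2 made up 15.4% ± 3.93 and 15.0% ± 3.49, and Tet1 14.7% ± 1.46 and 14.3% ± 0.146. These shares are by exon length and depend on it. With the longest annotated transcript as the length, the mean levels per kb of Tet2 and Tet1 were 3.65 and 2.07. The share of Tet2 was 10.9% in WT 1 and 10.99% in KO 1, against 16.8% to 18.2% in the other 4 libraries.

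**Figure D5:**
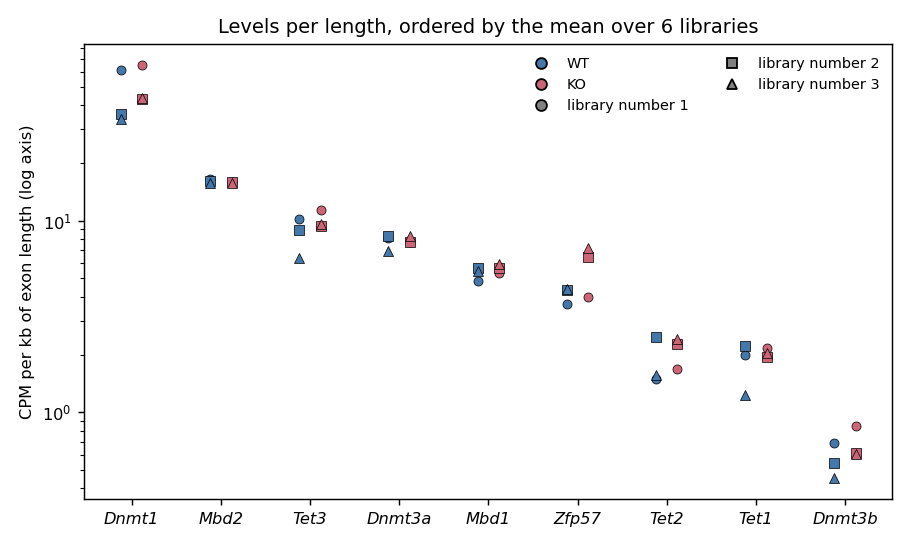
CPM per kb of exon length (y axis, log scale) for the 9 genes (x axis, ordered by their mean), in WT (blue) and KO (red), with the library number as the marker shape. Dnmt1 lies between 34.1 and 65.2 in all 6 libraries and Dnmt3b between 0.452 and 0.848.

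Over the 6 libraries, 5 of the 9 members were called between number 1 and the others, near the share of all tested genes (57.6%). Dnmt1, Dnmt3b and Tet3 were higher in number 1, and Tet2 and Zfp57 lower. With upper-quartile scaling 2 were called higher and 3 lower, as Tet3 lost its call and Mbd1 gained one. Without WT 1 the count of members was 2 and without KO 1 it was 1.

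For each member the gene with the most similar pattern was the one with the smallest root mean square difference in log2 CPM over the 6 libraries, each gene centred on its own mean, among about 9305 candidates. For Dnmt1 it was Mms22l (0.0300), for Dnmt3a Golga4 (0.0238), for Dnmt3b Rcor1 (0.0234), for Tet1 Kmt2c (0.0303), for Tet2 Aff4 (0.0645), for Tet3 Sp1 (0.0368), for Mbd1 Arhgap17 (0.0241), for Mbd2 Zc3h14 (0.0132) and for Zfp57 Lpar4 (0.0668). These values describe 6 libraries that share depth, length and library-number differences.

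Partners of the pathway were set beside the members. Of 60 genes on 5 partner lists, 58 were tested. Without the block 0 were called by edgeR, 0 had an unadjusted p under 0.05 and DESeq2 called 0. With the block 2 rose and 0 fell, where 3.33% of all tested genes rose and 6.46% fell. The median log2 fold change of the 58 with the block was 0.084, with 47 above 0. Over all tested genes it was 0.0068, with 7088 of 13683 above 0. Both that rose belong to the 11 tested writers' cofactors and recruiters: Uhrf1 went from 245 ± 85.4 to 307 ± 67.1 CPM and Pcna from 287 ± 95.9 to 341 ± 79.7 CPM (SD, n = 3), with edgeR adjusted p = 0.0142 and 0.0468 with the block and 0.999 for both without it. Of the same 11 genes, 8 were called higher in number 1 and 0 lower. With the block, 8 of the 30 replication genes also rose and 0 fell, led by Aurkb, Pole, Chaf1b and Pola1 (log2 fold changes 0.36, 0.36, 0.32 and 0.32), and their part in the rise of Uhrf1 and Pcna was not tested. When the block set only number 1 apart, 1 partner gene was called, and 0 when KO 2 and KO 3 were also summed.

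Of 14 tested demethylation partners, 0 were called in either fit. The most abundant were Idh1, an enzyme that makes the TET cosubstrate 2-oxoglutarate, at 308 ± 57.4 CPM for WT and 316 ± 49.0 for KO, and Parp1, a repair enzyme, at 241 ± 70.9 and 261 ± 63.5 CPM. Of 8 other methyl-CpG readers 0 were called, and Mbd3, a NuRD subunit, was at 254 ± 24.1 and 249 ± 28.5 CPM. Of 17 corepressor genes 0 were called, with Chd4, the NuRD remodeller, at 625 ± 26.0 and 675 ± 19.7 CPM and Rbbp4, a histone chaperone, at 358 ± 43.0 and 382 ± 36.8 CPM. Of 8 partners of ZFP57 0 were called, with Cbx5, which encodes HP1 alpha, at 660 ± 79.8 and 729 ± 26.2 CPM and Trim28, the corepressor that KRAB zinc finger proteins recruit, at 463 ± 89.4 and 489 ± 80.6 CPM (SD, n = 3).

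Some cell type markers also differed between the genotypes with the block, where 3.33% of all tested genes rose and 6.46% fell. Of 11 tested neuron markers 0 rose and 5 fell, led by Syt1, Myt1l, Elavl4 and Elavl3 (log2 fold changes −0.93, −2.46, −0.33 and −0.46), with a median of −0.46 over the 11. The summed level of the 12 neuron markers was nearly the same in both groups, at a mean of 967 CPM for WT and 963 CPM for KO. In numbers 2 and 3 alone 0 neuron markers were called higher and 2 lower, where 5.40% of tested genes were called. Among the 8 tested markers of the oligodendrocyte lineage, Bcas1 (1.19) and Pdgfra (0.56) were called higher and Sox10 (−0.92) lower, with Bcas1 also called without the block (edgeR adjusted p = 0.0316). Of 8 astrocyte markers 2 rose and 4 fell, led by Sparcl1 (1.13), Aldh1l1 (−1.97), Gfap (−1.12) and Slc1a2 (−0.81). Of 13 neural stem cell markers Hes5 rose (0.32) and Prom1 fell (−1.35), and of 5 tested mesenchymal markers Twist1 (3, 0 and 0 counts in WT 1 to 3, then 28, 32 and 16 in KO) and Foxc1 (0.36) rose and Col1a2 fell (−1.91). Twist1 passed the filter on low counts only through its KO libraries, so it could enter the test only as a gene that rose. The part of cell type markers in the levels of the 9 genes was not tested.

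Genes of 2 kinds that depend on DNA methylation were set beside the members. Of 26 imprinted genes under control regions that ZFP57 binds, 24 were tested, and 0 rose and 6 fell with the block, where 6.46% of all tested genes fell. Without the block 0 were called and 4 had an unadjusted p under 0.05 in edgeR's test. Their median log2 fold change was −0.10 with the block, and 17 of the 24 were below 0. Over all tested genes the median was 0.0068, with 7088 of 13683 above 0. Grb10, a growth factor receptor adaptor, went from 1126, 863 and 862 counts in WT 1, 2 and 3 to 418, 335 and 236 in KO 1 to 3, a log2 change of −1.36 ± 0.0929 with the block (edgeR adjusted p = 2.36e-05) and −1.35 ± 0.194 without it (edgeR adjusted p = 0.123). Dlk1, a Notch ligand relative, went from 64, 135 and 169 counts to 10, 7 and 1. Meg3, a noncoding RNA of the same region, went from 20, 117 and 96 counts to 2, 0 and 5. Dlk1 and Meg3 passed the filter on low counts only through their WT libraries. The count of genes that fell thus includes genes let in by the group where they were high. Ndn, a neuronal growth regulator, went from 30.5, 21.6 and 26.4 CPM to 20.8, 16.4 and 16.6 CPM (adjusted p = 0.00325 in edgeR's blocked test). Gnas, the most abundant of those named, had a mean of 1536 ± 217 CPM across WT and 1496 ± 214 across KO (SD).

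The hexamer TGCCGC, which ZFP57 binds when methylated, was found on either strand in 10 of 34 promoter windows (29.4%) of the 21 imprinted genes that matched RefSeq, among them Grb10 and Meg3, against 11.6% of all windows. Lists chosen for other reasons held it at similar shares, in 4 of 11 windows (36.4%) of the neural stem cell markers and 7 of 27 (25.9%) of the replication list. Control regions often lie outside promoters.

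Of 26 germline genes that promoter methylation keeps silent in somatic cells, 11 had 0 counts in every library and 4 passed the filter. With the block 0 of these 4 were called, and without it 0 were called, with 0 at an unadjusted p under 0.05 in edgeR's test. The list summed to between 4.59 and 5.42 CPM in the WT libraries and between 4.57 and 5.40 CPM in the KO libraries. Brdt, a testis bromodomain gene, averaged 3.09 ± 0.658 CPM over WT and 2.60 ± 0.458 over KO, and Ddx4, a germ cell RNA helicase gene, 0.678 ± 0.118 and 0.847 ± 0.273 CPM (SD, n = 3).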

How the data were processed

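The submitters' processing notes name Bowtie2, RSEM, Trim Galore, cutadapt and FastQC, and the build mm10. Tool versions, gene annotation, strandedness and rounding are not stated in the sources used. The authors deposited raw counts per gene symbol, 1 column per library, and these entered every test as deposited. Groups and numbers came from the sample titles.

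Genes were filtered with filterByExpr and libraries scaled by TMM in edgeR 4.0.16 (R 4.3.3). A robust quasi-likelihood fit over all genes was tested two-sided with Benjamini-Hochberg adjustment over all 13683 tested genes, and DESeq2 1.42.0 was an alternative. SE is the log2 fold change divided by the root of F. On simulated data the unblocked fit was tested without a gap between library numbers, and the replicate block with such a gap. The unblocked fit was not tested on data with that gap. WT and KO share library numbers, which the labels do not explain. Over genes, the deviations of same-numbered libraries from their group means correlated at 0.903, 0.684 and 0.646, all over the limit of 0.1, so the number was used as a block beside the unblocked fit. Numbers 2 and 3 also correlated across (0.743 and 0.667), so the structure sets number 1 apart from both.

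Positions and exon lengths came from GENCODE vM21 on GRCm38, the assembly mm10 names. Of the table's symbols 23334 (95.2%) matched 1 gene. Promoter sequences are RefSeq's, GRCm38.p6. Genes named were Phf2, the 9 members, up to 4 called genes of each list by lowest blocked p (or the 2 most abundant where fewer than 2 were called) and each member's nearest pattern; 1 gene that this rule names is not reported here, and the microglia and endothelial markers are given as sums only. Dnmt3l, Gnas and the genes named for motif matches were added after their values were seen, as was the split by transcript length. The members, lists and tests were chosen with earlier results of these data known.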

Additional observations from a re-analysis of the deposited data

How the results depend on the processing

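The number of genes called for KO against WT rested on the block. It was 8 without a block, 262 with DESeq2, 1340 with the replicate block, 1268 with the block in DESeq2, 1310 with the block and upper-quartile scaling (327 higher and 983 lower), 1445 when the block set only number 1 apart, 688 when KO 2 and KO 3 were also summed, and 743 without number 1; leaving out 1 library gave 0 to 21. With no gene called by edgeR, without WT 2, WT 3, KO 1, KO 2 or KO 3, between 499 and 864 genes had an unadjusted p under 0.05. Upper-quartile scaling alone called 2 higher and 4 lower. Members called went from 0 to 1 with the replicate block, with or without upper-quartile scaling, and in numbers 2 and 3 alone (Zfp57 each time), and to 2 (Zfp57 and Dnmt1) with the block in DESeq2 or with number 1 as the block. With number 1 as the block and 1 library left out, alternatives added after seeing the data, 0 to 3 were called. Tet3 was among them without WT 2 or WT 3. Partner genes called went from 0 to 2 with the replicate block in edgeR or DESeq2, and to 1 with upper-quartile scaling and the block, with number 1 as the block and in numbers 2 and 3 alone. The comparison of number 1 with the others called 5131 to 9264 genes when 1 library was left out (5131 without WT 1), and 1 to 6 members. Without a filter on low counts it called 3 members. The log2 fold change of Zfp57 stayed positive in every alternative run, from 0.35 to 0.73. Changes of sign, all of uncalled values, were −0.0064 for Dnmt1 without KO 1 (up to 0.55 when another library was left out). For Dnmt3a they were −0.0021 and −0.00010 with upper-quartile scaling, without and with the block, −0.056 without WT 3 and −0.010 without KO 3 (up to 0.080 with others left out), or −0.063 and −0.018 with number 1 as the block. They were −0.044 for Tet1 without WT 3 (−0.043 with number 1 as the block) and 0.0047 for Mbd2 without WT 1 (down to −0.049 with others left out). For number 1 against the others Dnmt3a gave −0.032 with upper-quartile scaling, −0.027 without WT 1 and −0.041 without WT 3 (up to 0.090 with others left out), and Mbd2 −0.017 with upper-quartile scaling. The cause was not tested. With the longest annotated transcript as the length, the levels per kb were 26.3 for Mbd2, 14.2 for Tet3 and 13.52 for Dnmt3a. They were 9.37 for Mbd1, 7.30 for Zfp57, 3.65 for Tet2 and 2.07 for Tet1. The order of the 9 genes was the same, but Tet2 and Tet1 lay further apart than by exon length (1.98 and 1.93). Dnmt3b, at 104 to 178 counts, had the lowest counts of the 9 genes. The largest SE of KO minus WT was that of Dnmt1 without the block (0.281) and of Tet1 with it (0.150).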
